A study of Mus musculus with 6 samples.

Results

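The TGF-β feedback inhibitors and corepressors are proteins that switch off transforming growth factor-β (TGF-β) and bone morphogenetic protein (BMP) signalling. The group was defined by name as Smad6, Smad7, Ski, Skil, Smurf1, Smurf2, Pmepa1, Tgif1, Tgif2 and Bambi. All 10 genes were represented on the arrays, among 19938 genes that have a probeset, a group of short probes, naming them alone. Smurf2 had a pair of such probesets and the other genes 1 each, and the probeset with the highest mean over the 6 arrays stood for a gene.

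Gene expression was measured in primary osteoblasts grown out from long bones of 3 male wild-type C57BL6/J mice aged 8 to 12 weeks, and the cultures were numbered 2, 4 and 5, numbers taken here as those of the mice. The cells, at passage 2 to 3, were differentiated for 14 days in osteogenic medium. On day 15, 1 culture of each mouse received recombinant murine C5a, a cleavage product of complement component C5 that acts on the receptor C5aR1, in proliferation medium for 4 h, and 1 culture of the same mouse spent 4 h in that medium without C5a. Each of the 6 RNAs was hybridised to its own array, so that the data form 3 pairs, and all values below are log2 values after robust multiarray averaging (RMA), on which a difference of 1 is a doubling. The number of arrays limits the precision.

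In TGF-β and BMP signalling, ligand-bound receptor kinases phosphorylate receptor-regulated SMAD proteins, which join SMAD4 and control transcription in the nucleus. Smad6 and Smad7 encode inhibitory SMADs, which bind the receptors or compete with other SMADs. Smurf1 and Smurf2 encode ubiquitin ligases that mark SMADs and, together with SMAD7, the receptors for degradation. Pmepa1 encodes a membrane protein that keeps SMAD2 and SMAD3 from the receptor. Bambi encodes a receptor-like protein without a kinase domain, which blocks receptor complexes. Ski, Skil (the protein SnoN), Tgif1 and Tgif2 encode nuclear corepressors that recruit histone deacetylases to SMAD complexes. Several of these genes are themselves SMAD targets and close negative feedback loops, and in bone both TGF-β and BMP steer osteoblast formation.

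Promoter sequences are shown for an inhibitory SMAD and both ubiquitin ligases, which were higher with C5a, and for Tgif2, which did not pass the thresholds. The windows of Tgif1, which was higher, and Ski, which did not pass, are described below and not printed. They run 5′ to 3′ on the strand of the gene, from 250 bases before to 50 bases after a transcript start, as given by RefSeq on the build GRCm38.p6. Capitals mark SMAD-binding letters, searched on both strands: the palindromic element GTCTAGAC, the CAGA box core CAGAC and the GC-rich element GGCGCC. The Smad6 window lies at chr9:64022010-64022309, that of Smurf1 at chr5:144965781-144966080, that of Smurf2 at chr11:106920666-106920965, all on the minus strand, and that of Tgif2 at chr2:156839757-156840056 on the plus strand.
Smad6: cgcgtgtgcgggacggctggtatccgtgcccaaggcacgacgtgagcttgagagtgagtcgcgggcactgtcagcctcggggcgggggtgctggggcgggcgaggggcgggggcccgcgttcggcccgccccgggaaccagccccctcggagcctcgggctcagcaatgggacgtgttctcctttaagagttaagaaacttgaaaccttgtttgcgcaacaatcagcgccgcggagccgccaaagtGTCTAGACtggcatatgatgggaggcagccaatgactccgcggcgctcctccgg
Smurf1: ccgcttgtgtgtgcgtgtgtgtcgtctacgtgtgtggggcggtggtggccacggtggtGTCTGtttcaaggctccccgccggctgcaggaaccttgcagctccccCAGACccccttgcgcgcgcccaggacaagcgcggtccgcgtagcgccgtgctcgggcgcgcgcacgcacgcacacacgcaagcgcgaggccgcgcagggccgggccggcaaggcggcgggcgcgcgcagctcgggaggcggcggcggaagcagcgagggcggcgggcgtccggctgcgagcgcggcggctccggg
Smurf2: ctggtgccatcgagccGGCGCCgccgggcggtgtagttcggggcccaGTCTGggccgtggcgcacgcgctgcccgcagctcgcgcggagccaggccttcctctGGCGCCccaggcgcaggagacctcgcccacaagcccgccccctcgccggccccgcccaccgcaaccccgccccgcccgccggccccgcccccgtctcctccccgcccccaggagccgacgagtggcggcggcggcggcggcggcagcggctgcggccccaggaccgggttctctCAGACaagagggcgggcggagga
Tgif2: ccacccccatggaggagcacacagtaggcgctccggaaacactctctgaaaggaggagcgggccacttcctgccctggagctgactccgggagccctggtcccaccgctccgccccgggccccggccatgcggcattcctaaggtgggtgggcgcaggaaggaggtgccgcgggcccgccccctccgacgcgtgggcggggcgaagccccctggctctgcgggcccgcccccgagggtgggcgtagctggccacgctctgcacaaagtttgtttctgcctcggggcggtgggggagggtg

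The Smad6 window held the palindromic element 1 time, beginning 4 bases before the start, and neither of the other elements. Of 32851 promoter windows of the same length in the RefSeq table, 0.213% held GTCTAGAC, 49.6% held CAGAC and 11.9% held GGCGCC. Smurf1 had 2 matches to CAGAC, at 192 and 145 bases before the start. Smurf2 had 2 matches to CAGAC and 2 to GGCGCC. The Ski window, at chr4:155222486-155222785, had 1 match to GGCGCC, and the Tgif2 window had no match to any of the motifs searched. The Smurf2, Ski and Tgif2 windows had 80.3%, 85.3% and 72.3% GC, against a median of 52.7% over all windows. Tgif1 has 5 windows, between 37.3% and 68.7% GC, of which 3 held CAGAC. The core TGTCA, which TGIF proteins bind, was found in the Smad6 window and in 4 of the 5 Tgif1 windows, against 45.4% of all windows. None of the 10 windows of these 6 genes held the AP-1 element TGANTCA, which 7.81% of all windows held, or the cAMP response element TGACGTCA, which 1.79% held. A match describes letters in the window and was not tested for binding. Pmepa1, Skil, Smad7 and Bambi were not matched in the table.

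**Figure D1:**
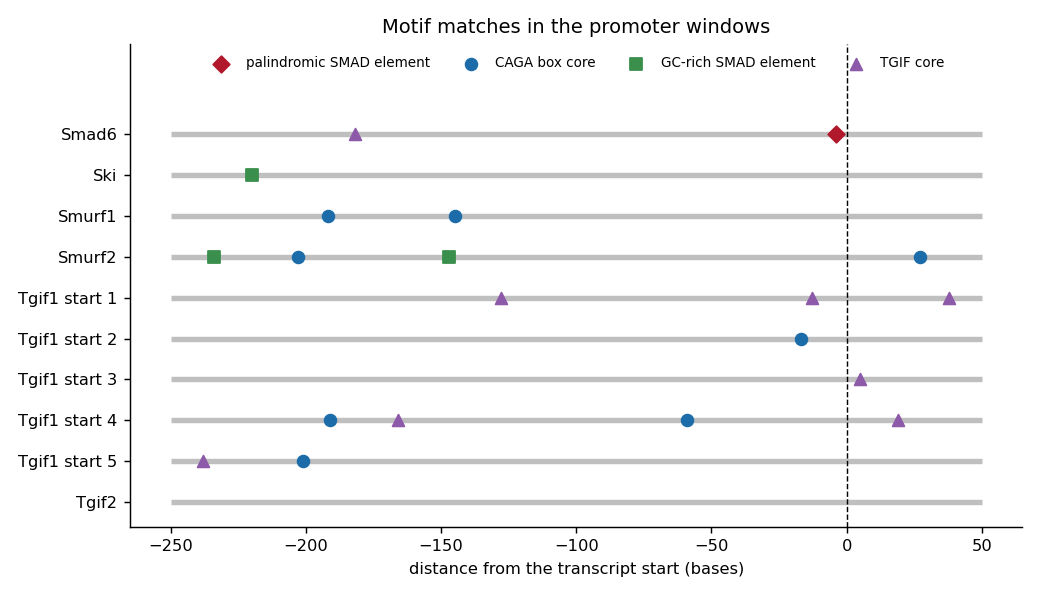
Motif matches in the promoter windows of Smad6, Ski, Smurf1, Smurf2, Tgif1 (5 transcript starts) and Tgif2, with the distance from the transcript start in bases on the x axis, 1 window per row and the symbol at the first base of the match. The palindromic SMAD element stands in the Smad6 window alone, 4 bases before the start, and the Tgif2 window is empty.

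Upon stimulation with C5a, 7 of the 10 genes were higher and 0 were lower in a limma fit with the mouse as a block, where a gene passed with a p below 0.05 before adjustment and a change of 1.5-fold or more, the thresholds of the study's methods. These were Pmepa1, Smad7, Skil, Smurf2, Tgif1, Smad6 and Smurf1, with fold changes from 1.58 to 4.05. In a paired test that took the spread of each probeset alone, 2 of them passed, Smad7 and Smurf2, and Pmepa1, Skil, Smad6, Smurf1 and Tgif1 did not. Over all 19938 genes 2.22% were higher and 2.21% were lower at these thresholds. In 7 of the 10 genes all 3 C5a arrays lay above all 3 unstimulated arrays, a separation found in 8.67% of all genes. They are the 7 that had passed on the same values, so the separation is not separate evidence. No gene of the group had all C5a arrays below, against 9.95% of all genes. The median log2 fold change of the 10 genes was 0.69, and that of all genes was -0.01. With Benjamini-Hochberg adjustment across the 35556 probesets, 0 of the 10 genes passed 0.05 with limma. The smallest adjusted p was 0.0772 for Smurf2, and 0.0201% of all genes passed, all 4 of them lower with C5a. Before adjustment and without the fold limit, 7 of the 10 genes were higher and 0 lower at a limma p below 0.05. At that limit 1647 of all 19938 genes were higher and 2376 were lower.

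The adjusted p-values depended on which probesets entered the fit. When only the 21789 probesets naming 1 gene were fitted, Smurf2 (adjusted p = 0.0202) and Smad7 (adjusted p = 0.0363) passed with limma, and the adjusted p of Smurf1, Pmepa1 and Skil was 0.0519, 0.053 and 0.056. In that fit 1.5% of all genes passed as higher. The adjusted p-values below are those over all probesets.

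**Figure D2:**
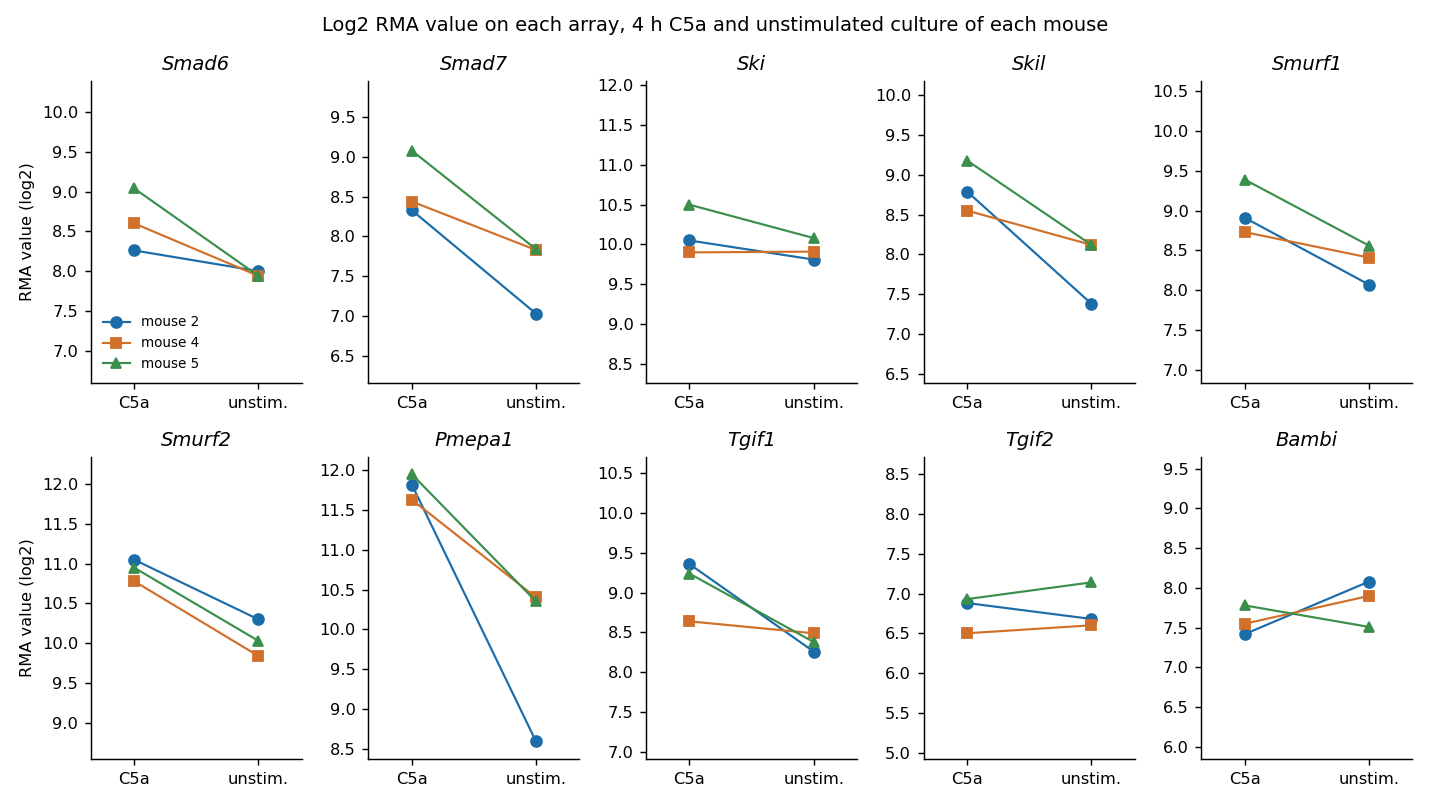
Log2 RMA value of each gene on each array, with the C5a culture left and the unstimulated culture right in every panel and a line per mouse. Each panel spans the same range of log2 units around its own middle. Pmepa1 has the widest gap between the groups, with C5a values of 11.63 to 11.95 and unstimulated values of 8.59 to 10.4, and those of Tgif2 and Bambi cross or overlap.

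Among the inhibitors that act at the receptor, Pmepa1 changed the most. Its probeset (10490159) had 11.82, 11.63 and 11.95 in the C5a cultures of mice 2, 4 and 5, against 8.59, 10.4 and 10.35 in their unstimulated cultures. The 3 C5a cultures lay close together, whereas the unstimulated culture of mouse 2 was far below the other two. The log2 fold change was 2.02 (standard error 0.404, 95% interval 0.97 to 3.07, adjusted p = 0.129 from limma), a 4.05-fold rise that stood in place 8 of 19938 genes ordered by log2 fold change. Mouse 2 changed by 3.23, mouse 4 by 1.23 and mouse 5 by 1.59, so that the size of the mean rested on mouse 2. Without mouse 2 the log2 fold change was 1.41, still the largest of the group.

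Smad7, the inhibitory SMAD induced by TGF-β itself, had 8.33, 8.44 and 9.08 in the C5a cultures of mice 2, 4 and 5, against 7.03, 7.83 and 7.84 in the unstimulated cultures. The groups did not overlap. Its log2 fold change was 1.05 (standard error 0.158, 95% interval 0.64 to 1.46, adjusted p = 0.102 from limma).

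Smad6, the inhibitory SMAD that mainly restrains BMP signalling, had 8.26, 8.6 and 9.04 in the C5a cultures of mice 2, 4 and 5, against 8.0, 7.94 and 7.94 in the unstimulated cultures. The unstimulated values were nearly equal, with an SD of 0.0381, and the C5a values spread out, with an SD of 0.394 (n = 3 each). Its log2 fold change was 0.67 (standard error 0.172, adjusted p = 0.171 from limma). The rise was thus 0.26 in mouse 2, against 0.66 and 1.11 in mice 4 and 5. Without mouse 5 it was 0.46, below the fold threshold. In the Smad6 window printed above, the palindromic SMAD element (64022056 to 64022063) lies at the transcript start of that window. The gene is annotated up to 64022085, so the element lies inside it. A part of the element in the rise was not tested.

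Bambi, the decoy receptor, did not pass. It had 7.42, 7.55 and 7.78 in the C5a cultures of mice 2, 4 and 5, against 8.08, 7.9 and 7.51 in the unstimulated cultures. It was lower with C5a in mice 2 and 4 and higher in mouse 5, and the groups overlapped. The log2 fold change was -0.24 (standard error 0.191, 95% interval -0.74 to 0.25, adjusted p = 0.659 from limma), an interval that reaches past a 1.5-fold decrease.

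Both ubiquitin ligases were higher with C5a. The Smurf2 probeset with the higher mean (10392261) had 11.05, 10.78 and 10.95 in the C5a cultures of mice 2, 4 and 5, against 10.3, 9.84 and 10.03 in the unstimulated cultures. Its rise was even, with changes of 0.76, 0.95 and 0.92 in the 3 mice. Its log2 fold change came to 0.87 (standard error 0.0761, 95% interval 0.68 to 1.07, adjusted p = 0.0772 from limma), and Smurf2 stood in place 44 of all genes ordered by p, while it stood in place 163 by log2 fold change.

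The other Smurf2 probeset (10392259) was higher with C5a as well, at a log2 fold change of 0.89 (95% interval 0.53 to 1.24, adjusted p = 0.103 from limma). Its changes were 0.69, 1.26 and 0.72 in mice 2, 4 and 5, so that both probesets were higher in 3 of 3 mice. They are read-outs of the same RNAs and not independent replicates.

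Smurf1, the ligase first described for SMADs of the BMP branch, had 8.91, 8.73 and 9.39 in the C5a cultures of mice 2, 4 and 5, against 8.07, 8.41 and 8.56 in the unstimulated cultures. The lowest C5a value, in mouse 4, was only slightly above the highest unstimulated value, in mouse 5. Its log2 fold change came to 0.66 (standard error 0.128, 95% interval 0.33 to 0.99, adjusted p = 0.124 from limma). Without mouse 2, and likewise without mouse 5, it was 0.58 and just missed the fold threshold.

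In the nuclear group, Skil and Tgif1 were higher with C5a and their relatives Ski and Tgif2 did not pass. Skil had 8.79, 8.55 and 9.18 in the C5a cultures of mice 2, 4 and 5, against 7.38, 8.12 and 8.12 in the unstimulated cultures. As for Pmepa1 and Smad7, the unstimulated culture of mouse 2 held the lowest value. Its log2 fold change came to 0.96 (standard error 0.198, 95% interval 0.45 to 1.48, adjusted p = 0.131 from limma).

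Ski, the founding member of that family, had 10.05, 9.9 and 10.5 in the C5a cultures of mice 2, 4 and 5, against 9.81, 9.91 and 10.08 in the unstimulated cultures. The groups overlapped, and the change in mouse 4 was -0.01. The fitted log2 fold change was 0.22 (standard error 0.105, 95% interval -0.06 to 0.49, adjusted p = 0.427 from limma), an interval that stays below a 1.5-fold increase.

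Tgif1, a homeobox corepressor, had 9.36, 8.64 and 9.24 in the C5a cultures of mice 2, 4 and 5, against 8.26, 8.49 and 8.38 in the unstimulated cultures. The rise was 1.1 in mouse 2 and 0.86 in mouse 5 but only 0.15 in mouse 4. The fitted log2 fold change was 0.7 (standard error 0.197, 95% interval 0.19 to 1.22, adjusted p = 0.192 from limma). It missed the thresholds without mouse 2 (log2 fold change 0.5) and without mouse 5 (0.63), and was 0.98 without mouse 4.

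Tgif2, a close relative of Tgif1, had 6.88, 6.5 and 6.93 in the C5a cultures of mice 2, 4 and 5, against 6.68, 6.6 and 7.14 in the unstimulated cultures. It was higher in mouse 2 and lower in mice 4 and 5. The fitted log2 fold change was -0.04 (standard error 0.101, 95% interval -0.3 to 0.23, adjusted p = 0.931 from limma), an interval that stays within 1.5-fold in either direction. With mouse 5 left out the sign turned, to 0.05.

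**Figure D3:**
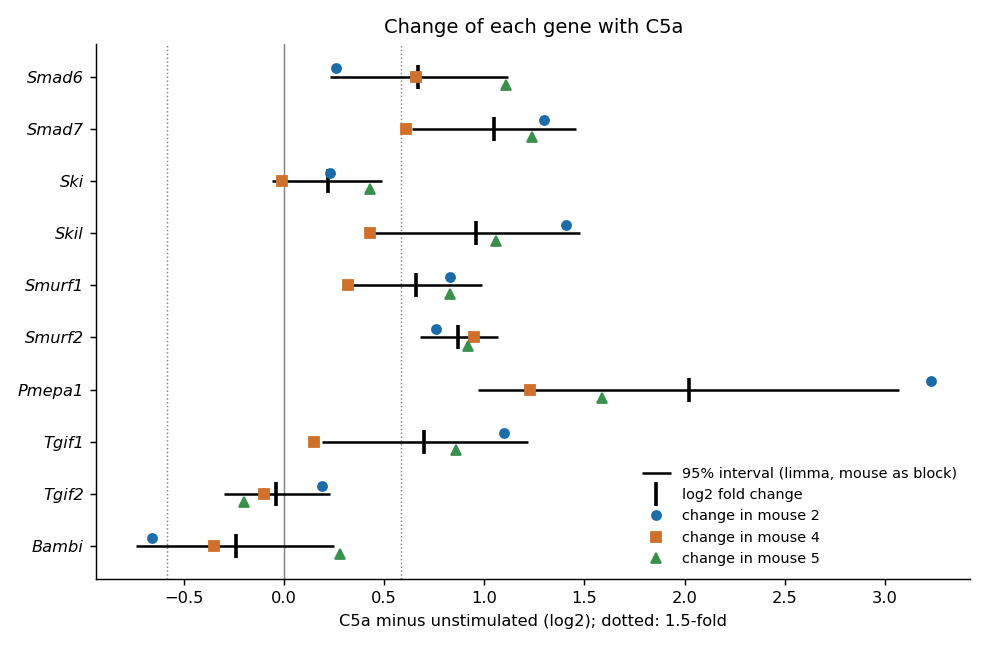
Change of each gene (C5a minus unstimulated, log2) in each mouse, with the log2 fold change of the fit as a tick and its 95% interval as a bar, and dotted lines at 1.5-fold. Smurf2 has the shortest interval of the 7 genes that passed, 0.68 to 1.07, and Pmepa1 the longest, 0.97 to 3.07.

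The relatives within the group were compared by the difference of their changes within each mouse, over 4 pairs. With 3 mice an exact two-sided sign-flip permutation test cannot go below p = 0.25, so that none of these differences can pass the threshold. Skil exceeded Ski by 0.75 ± 0.385 (SD, n = 3) on the log2 scale and in 3 of 3 mice (exact permutation p = 0.25, adjusted p = 0.5). Tgif1 exceeded Tgif2 by 0.74 ± 0.431 (SD, n = 3), also in 3 of 3 mice (exact permutation p = 0.25, adjusted p = 0.5). Smad7 and Smad6 differed by 0.37 ± 0.59 and Smurf2 and Smurf1 by 0.21 ± 0.365 (SD, n = 3 each), with signs that varied between mice (exact permutation p = 0.5 and adjusted p = 0.5 for each).

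The mice differed in the size of the change. Among the 7 genes that passed, the rise was smallest in mouse 4 for 5 of them, Pmepa1, Skil, Smad7, Smurf1 and Tgif1, and smallest in mouse 2 for Smad6 and Smurf2. No share over all genes was computed for this count. The median change of all 10 genes came to 0.8 in mouse 2, to 0.37 in mouse 4 and to 0.89 in mouse 5, whereas the median of all genes lay between -0.02 and 0 in each. The number of the 10 genes with a change above 0 was 9, 7 and 9 in these mice, against 50.3%, 46.8% and 45.3% of all genes. Before stimulation 6 of the 10 genes had their lowest level in mouse 2, as did 34.9% of all genes.

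The cultures also differed in their cell markers. Macrophage markers were high in mice 2 and 4 and lower in mouse 5, by less for the osteoclast markers Ctsk and Acp5. The mean log2 value of 12 of 12 measured markers was 9.6, 9.79 and 6.82 in the C5a cultures of mice 2, 4 and 5, against 9.92, 10.23 and 6.66 in their unstimulated cultures, and 0 of the 12 passed the thresholds. Of the defining markers, Ptprc had 7.46, 7.65 and 4.68 with C5a in these mice, and Adgre1 had 9.88, 9.9 and 5.45. Log2 array values have no 0, and no detection call was used. The osteoblast markers Col1a1, with 13.32 to 13.76 in C5a and 13.41 to 13.79 in unstimulated cultures, and Sparc were high on every array. Ibsp had 11.26, 12.62 and 7.02 in the C5a cultures, against 11.75, 12.88 and 7.56 without C5a. Alpl, Dmp1, Phex and Pth1r were likewise lowest in mouse 5 in both conditions, and Sp7 was highest in mouse 4. The mean of the 9 measured osteoblast markers was 10.35, 10.97 and 9.22 with C5a in mice 2, 4 and 5. Without C5a it was 10.43, 11.11 and 9.33, and 0 of the 9 passed the thresholds. In mouse 5 the changes of Smad6, Smad7, Skil, Smurf1, Smurf2, Pmepa1 and Tgif1 were 1.11, 1.24, 1.06, 0.83, 0.92, 1.59 and 0.86. Without mouse 5, Pmepa1, Skil, Smad7 and Smurf2 passed the thresholds. Of the other marker lists, 2 of 6 smooth muscle and pericyte markers were higher, against 2.22% of all genes. Their list mean was 8.58 to 8.88 in C5a and 8.1 to 8.86 in unstimulated cultures. In the chondrocyte list 1 of 6 markers was lower, against 2.21% of all genes. The part of other cell types in the changes of the 7 genes was not tested. In bulk RNA, a shift in the share of a cell type and a change of RNA per cell cannot be told apart.

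Over the 6 arrays, which share mice and treatment, the level of Pmepa1 followed that of Skil (Pearson's r = 0.97), Smad7 (r = 0.95), Smurf1 (r = 0.89) and Tgif1 (r = 0.82) most closely within the group, and that of Bambi ran opposite (r = -0.7). Among all other genes the closest were Uhmk1, Snx11, Mrpl21, Plppr1 and Cd44, with r from 0.989 to 0.994. The hyaluronan receptor Cd44 had 10.1, 9.99 and 9.98 in the C5a cultures of mice 2, 4 and 5, against 8.44, 9.28 and 9.12 in the unstimulated cultures (log2 fold change 1.08, standard error 0.202, adjusted p = 0.12 from limma). Its unstimulated level was lowest in mouse 2, as was that of Pmepa1. Because Cd44 was picked for its correlation with Pmepa1, neither its rise nor this low value is a separate result. Of the others, Uhmk1 and Snx11 changed by 0.45 and 0.52 on the log2 scale, and Mrpl21 and Plppr1 by 0.2 and 0.14. These correlations are descriptions over few arrays, and both the treatment and the low unstimulated culture of mouse 2 enter them.

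The other genes of the pathway were described by list. For comparison, 2.22% of all genes were higher and 2.21% were lower at the thresholds of the methods. Of 19 receptors and signal-carrying SMADs, 2 were higher and 1 was lower at the thresholds of the methods, with a median log2 fold change of 0.08. Tgfbr1, the type I TGF-β receptor that SMAD7 and the SMURFs target, had 8.57, 8.64 and 9.1 in the C5a cultures of mice 2, 4 and 5, against 7.31, 8.06 and 7.83 in the unstimulated cultures (log2 fold change 1.03, standard error 0.162, adjusted p = 0.106 from limma). Its groups did not overlap. Acvr1, a type I receptor of BMPs and activins, had a log2 fold change of 0.55 and the co-receptor Tgfbr3 of -0.52 (adjusted p = 0.11 and 0.121), both under the fold threshold. The other higher gene was Bmpr1b (1.45) and the lower one Acvr2a (-0.61). Smad2, Smad3 and Smad4, which carry the TGF-β signal, had -0.01, 0.21 and 0.14 and did not pass.

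Of 18 other ubiquitin ligases, deubiquitinases and phosphatases that act on receptors or SMADs, 0 were higher and 1 was lower, Usp11, a deubiquitinase, with 7.61, 7.35 and 7.57 in C5a cultures against 8.61, 7.79 and 7.98 in unstimulated cultures (log2 fold change -0.61, adjusted p = 0.149 from limma). The median log2 fold change was -0.03. Nedd4l and Wwp1, relatives of the SMURFs in the NEDD4 family, had -0.14 and -0.36, and the SMAD phosphatase gene Ctdsp1 had -0.41 (adjusted p = 0.535, 0.25 and 0.11). These values did not pass.

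Of 14 measured partners of the corepressors, 0 were higher and 0 were lower, with a median of -0.03. The deacetylase gene Hdac3 changed by -0.47 on the log2 scale (adjusted p = 0.119), Hdac1 by -0.29 (adjusted p = 0.168) and Hdac4 by 0.38 (adjusted p = 0.173). For Hdac3 and Hdac1 all C5a arrays lay below all unstimulated arrays, at less than the 1.5-fold threshold. This separation was found in 9.95% of all genes. For Ctbp2, with a log2 fold change of 0.35 (adjusted p = 0.231 from limma), all C5a arrays lay above, as in 8.67% of all genes.

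Of 20 measured genes known as SMAD targets outside the group, 7 were higher and 3 were lower, with a median of 0. The higher ones were Tgfbi, Snai1, Klf10, Ccn2, Ldlrad4, Tgfb1 and Ltbp2 and the lower ones Junb, Cdkn2b and Id4. For Tgfb1, Ltbp2 and Id4 the C5a and unstimulated arrays overlapped, and for the others they did not. The change of Tgfb1 was 0.19 in mouse 4 and that of Ltbp2 was 0.01 in mouse 5. The study lists Tgfb1 as not detected by microarray. Snai1, a repressor of epithelial genes, had 10.32, 10.25 and 10.67 in the C5a cultures of mice 2, 4 and 5, against 8.67, 8.96 and 9.12 in the unstimulated cultures (log2 fold change 1.49, standard error 0.0965, adjusted p = 0.0704 from limma). Tgfbi, a matrix protein named for its induction by TGF-β, had a log2 fold change of 2.28 and the AP-1 subunit Junb of -2.01 (adjusted p = 0.0796 and 0.0704). Ldlrad4, which encodes a relative of PMEPA1 with the same action on SMAD2 and SMAD3, had 1.02 (adjusted p = 0.169). Of the ID genes, typical targets of BMP signalling, Id4 had -1.11, Id2 had -0.58 and just missed the fold threshold, and Id1 and Id3 had -0.02 and 0.01. Without the mouse as a block 6 of the 20 genes passed in place of 10.

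**Figure D4:**
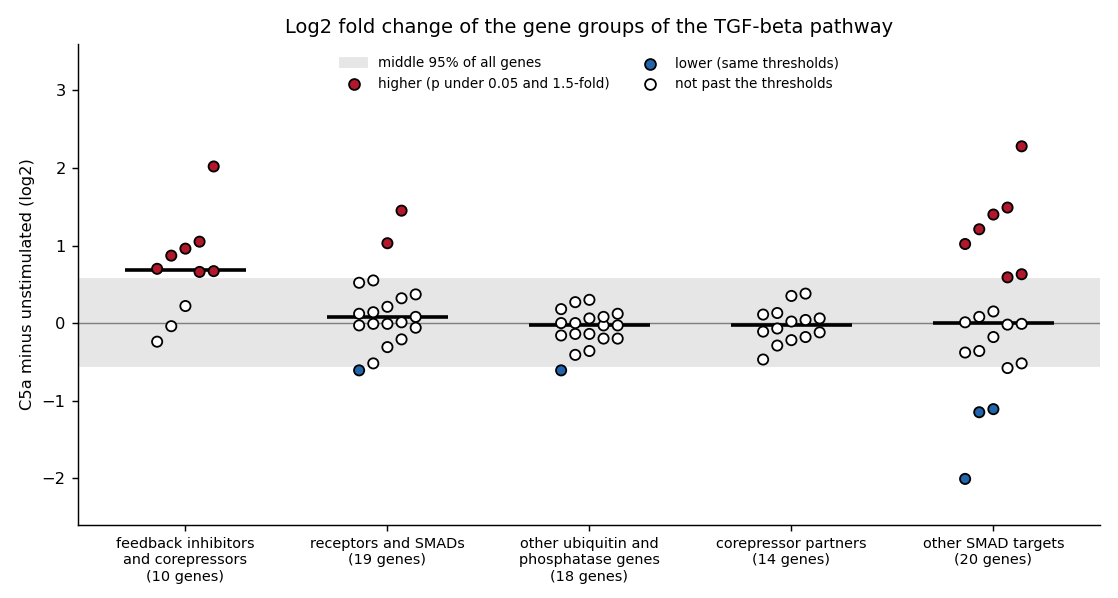
Log2 fold change (C5a minus unstimulated) of each gene in the 5 gene groups, with the median of a group as a line and the range of the middle 95% of single genes, -0.56 to 0.57, as a grey band, which is no yardstick for a median. Filled points passed the thresholds of the methods. The median of the feedback inhibitors and corepressors lies at 0.69, and the medians of the other groups lie between -0.03 and 0.08. Among the 20 other SMAD targets 7 were higher and 3 were lower, which their median of 0 does not show.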

How the data were processed

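RNA of 6 cultures was hybridised to Mouse Gene ST arrays. The authors used Affymetrix Expression Console and BRB-ArrayTools and deposited log2 summaries per probeset after RMA. Software versions are not given in the sources used here. Array medians ran from 5.89 to 5.93. The cultures stimulated for a shorter time are not analysed here.

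All 35556 probesets were fitted with limma (version 3.58.1, R 4.3.3) without further normalization or filter, with the mouse as a block and Benjamini-Hochberg adjustment across the whole table. Genes were named through the platform annotation, from probesets naming 1 gene. Per the labels, the cells of each mouse were divided between both conditions, and the number in the sample titles was taken as that of the mouse. Deviations from the group means correlated at 0.495 to 0.684 within a mouse and at -0.446 to -0.0353 between mice. Because the deviations in a group cancel out, positive values within a mouse push those between mice to the negative side. The range between mice is therefore not separate evidence for the pairing. The methods' fold limit, written as at most 1.5, was read as at least 1.5.

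The genes and lists were chosen with earlier results of these data known, and the study itself names Tgif1, Pmepa1, Tgfbr1, Tgfbi and Junb as changed on these arrays and Tgfb1 by PCR, so their direction is not independent evidence. Named in full are the 10 genes, the 3 genes with the smallest p in each pathway list and the 5 genes closest to Pmepa1. Other genes of these lists were named after their values were seen. The motifs were chosen after the fit. Alternatives were the unpaired fit, the methods' test and its paired form, a variance trend, filters, other normalizations, left-out arrays and another choice of probeset.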

Additional observations from a re-analysis of the deposited data

How the results depend on the processing

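Of 180 values of the 10 genes under 18 alternatives, 162 kept their direction and their side of the thresholds. This total includes Ski, Tgif2 and Bambi, which did not pass in the main fit. The 15 values that no longer passed all came from genes that had passed. They were 6 of Smurf1, 4 of Tgif1, 3 of Smad6 and 1 each of Skil and Pmepa1. Without the replicate block 7 genes passed the thresholds of the methods, the same 7 as in the paired fit. With the methods' own test 6 passed, without Smurf1, among 665 probesets in place of 1166. With its paired form, which estimates the spread of each probeset alone, 2 passed, Smad7 and Smurf2, among 517 probesets. Neither left a probeset past the adjusted threshold (0 in place of 4). With probesets above the 40th percentile 2 genes of the group passed the adjusted threshold among 373 probesets, and with probesets naming 1 gene 2 among 795, in both cases Smad7 and Smurf2. The prior degrees of freedom of limma were 2.77 over all probesets and 3.49 over those naming 1 gene. The cause was not tested.

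Leaving out a mouse left 4 to 7 genes past the thresholds of the methods, 4 without mouse 5 and 5 without mouse 2, and 885 to 1754 probesets over all. The lowest count with 1 array left out and no block was 701. The adjusted threshold was passed by 0 to 3 probesets. Of the 10 genes, Tgif2 alone changed sign. It ranged from -0.15 to 0.05 over the left-out mice, with 0.05 without mouse 5, and turned to 0.1 without the C5a array of mouse 4 and to 0.13 without the unstimulated array of mouse 5, the last 2 without the block. The 3 mice limit what can be called.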
